A study of Mus musculus with 68 samples.

Results

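The nuclear genes for subunits of oxidative phosphorylation were followed in mouse lung tissue cut by laser as alveolar septa or as vessels. Members were chosen by the gene symbol of the array annotation, as every Ndufa, Ndufb, Ndufc, Ndufs or Ndufv gene followed by a digit, every Sdha to Sdhd, Uqcr, Cox4 to Cox8 and Atp5 gene. This gave 83 of the 24357 genes named on the array. Sorted into complexes by symbol alone, 36 were of complex I, 4 of complex II, 8 of complex III, 17 of complex IV and 18 of complex V. They had 136 probes, and 35 of them had more than 1; each gene was represented by the probe with the highest mean over all 68 arrays.

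Oxidative phosphorylation is the last step of aerobic energy production. Complexes I and II feed electrons into the inner mitochondrial membrane, complexes III and IV pass them to oxygen, and complex V, the ATP synthase, uses the proton gradient that complexes I, III and IV build. Most subunits are used in every cell, but several subunits of complex IV come in tissue forms: Cox6a2, Cox7a1 and Cox8b are the forms of heart and skeletal muscle, and Cox4i2 is the form known for its high level in lung.

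RNA was measured on 1-colour arrays, and values are deposited log2 intensities with nearly equal percentiles on all arrays. Each compartment had 34 arrays in 7 groups. After 3 months there were 5 wild-type room air arrays, 5 wild-type cigarette smoke arrays, 4 Fgf10 knock-down room air arrays and 5 Fgf10 knock-down smoke arrays; the treatment text gives the knock-down animals as Fgf10+/-. The rest had 8 months of exposure, then 1 week with doxycycline or none: 5 arrays of controls kept in room air, 5 of controls kept in smoke, and 5 of smoke-exposed animals labelled as overexpressing Fgf10. Strain, age and sex, the promoter of the overexpression construct, which of the 8-month groups received doxycycline, and which septa and vessel arrays came from the same animal are not stated in the labels. The design text calls the arrays of a group biological replicates. Each compartment thus allows comparisons of smoke with room air and of labelled Fgf10 levels.

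The compartments carried their defining markers. Myh11, the myosin of smooth muscle, lay between 8.52 and 11.69 in septa and between 12.70 and 15.52 in vessel, without overlap. Surfactant protein C (Sftpc) read 15.17 or more in septa and 15.65 or more in vessel, near the highest value deposited (15.98), so this alveolar marker did not separate the compartments. These ranges leave out 3 arrays that stood apart. The median correlation with the other arrays of the compartment was 0.00637 for replicate 5 and 0.287 for replicate 1 of knock-down smoke septa, and 0.469 for replicate 5 of knock-down smoke vessel, against 0.709 to 0.946 for the others. On replicates 5 and 1 of knock-down smoke septa the median of the 83 genes was 5.67 and 6.91, while it lay between 10.80 and 12.19 on the other 32 septa arrays and between 10.70 and 12.11 on 33 vessel arrays. Fgf10, the targeted gene, did not follow the labels clearly: in room air septa it read 7.71 ± 0.58 (SD, n = 5) in wild type and 8.36 ± 0.60 (SD, n = 4) in knock-down, and in 8-month smoke septa 9.01 ± 1.11 (SD, n = 5) in controls and 8.21 ± 0.91 (SD, n = 5) on the arrays labelled overexpressing, so knock-down and overexpression below are label names. Results are given with and without the 3 low-correlation arrays. Of the 83 genes, 79 lay above the array's 40th percentile (about 5.32) on at least 60 arrays; Cox7b2 and Cox8c did so on 11 and 8 arrays only.

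**Figure D1:**
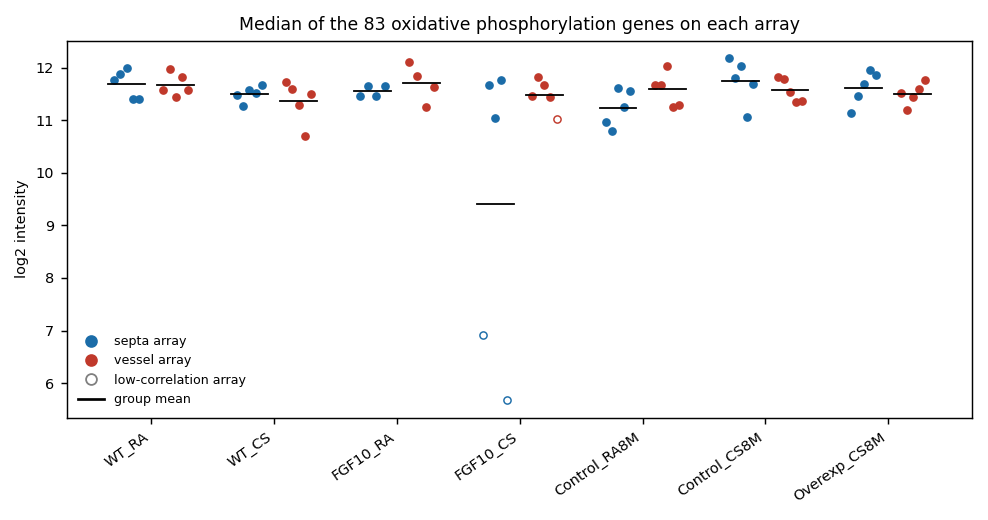
Median log2 intensity of the 83 oxidative phosphorylation genes on each array (points), by condition, with septa in blue and vessel in red and the group mean as a bar. The 3 open points are the low-correlation arrays; those of knock-down smoke septa lie at 5.67 and 6.91, below all other arrays.

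Promoter windows of 4 genes are shown because they hold, or lack, the site of nuclear respiratory factor 1 (NRF1), a regulator known to act on many respiratory chain genes. Cox6a1 and Ndufs5 hold it. Cox7a1 and Cox8b are heart forms whose signal differed widely among vessel arrays. The windows of 300 bases around the gene start come from RefSeq with build GRCm38.p6; capitals mark the NRF1 consensus (the runs that begin with GCGCA) and the E-box CAGCTG, the site of many muscle and other basic helix-loop-helix factors, searched on both strands. They lie at chr5:115348909-115349208 on the minus strand (Cox6a1), chr4:123718137-123718436 on the minus strand (Ndufs5), chr7:30183921-30184220 on the plus strand (Cox7a1) and chr7:140900397-140900696 on the minus strand (Cox8b).
Cox6a1: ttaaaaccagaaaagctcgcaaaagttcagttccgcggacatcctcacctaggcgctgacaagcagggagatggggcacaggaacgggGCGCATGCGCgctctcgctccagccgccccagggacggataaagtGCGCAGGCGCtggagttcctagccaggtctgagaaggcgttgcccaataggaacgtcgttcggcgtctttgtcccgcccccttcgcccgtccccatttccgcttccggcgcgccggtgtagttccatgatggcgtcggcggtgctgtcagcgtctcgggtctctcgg
Ndufs5: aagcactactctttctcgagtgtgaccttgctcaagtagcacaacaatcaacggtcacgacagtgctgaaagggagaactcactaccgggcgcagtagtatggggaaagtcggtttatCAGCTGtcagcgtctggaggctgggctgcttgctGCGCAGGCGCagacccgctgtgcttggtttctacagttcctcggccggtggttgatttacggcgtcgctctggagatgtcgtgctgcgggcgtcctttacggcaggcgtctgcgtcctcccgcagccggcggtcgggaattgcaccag
Cox7a1: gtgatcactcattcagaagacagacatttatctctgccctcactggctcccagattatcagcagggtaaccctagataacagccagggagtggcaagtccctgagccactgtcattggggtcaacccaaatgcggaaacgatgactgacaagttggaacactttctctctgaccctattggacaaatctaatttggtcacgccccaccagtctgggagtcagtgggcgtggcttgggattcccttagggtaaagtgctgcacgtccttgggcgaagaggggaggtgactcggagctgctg
Cox8b: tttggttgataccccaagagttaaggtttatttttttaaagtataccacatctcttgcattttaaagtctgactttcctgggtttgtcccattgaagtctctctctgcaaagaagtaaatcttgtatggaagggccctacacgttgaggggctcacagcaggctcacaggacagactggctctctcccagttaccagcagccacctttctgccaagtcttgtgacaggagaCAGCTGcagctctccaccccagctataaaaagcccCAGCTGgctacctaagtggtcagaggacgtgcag
The NRF1 consensus occurs 2 times in the Cox6a1 window, 1 time in that of Ndufs5 and in neither window of the heart forms. The windows of Cox7a2 and Cox8a, widely expressed forms of complex IV, lacked it too. No window was found for the heart form Cox6a2. The E-box occurs 1 time in the Ndufs5 window, not overlapping the NRF1 consensus, and 2 times in that of Cox8b. Windows were found for 68 of the 83 genes, 74 windows in all. The NRF1 consensus was in 18 of them (24.3%), against 4.6% of all 32851 windows in the table. Among the 17 genes with it were Sdha, Sdhd, Uqcrc1, Atp5c1, Atp5g2, Atp5g3, Ndufa11 and Ndufs6. The E-box was in 8.11% of the members' windows and 16.3% of all windows. The consensus of the muscle factor MEF2 was in 0 of the 74 windows and in 3.69% of all. A match is a run of letters, and binding was not measured.

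The first comparison set septa against vessel over all 7 conditions. With all arrays, 4 of the 83 genes were higher and 12 lower in septa (limma, Benjamini-Hochberg adjusted p under 0.05), or 4.82% and 14.5%, where 11.0% of all 23927 genes tested were higher and 8.89% lower. Without the 3 low-correlation arrays, 30 genes were higher and 13 lower, or 36.1% and 15.7%, where 18.5% and 15.0% of 23266 genes tested were. All 16 genes called with all arrays were among these 43. The median difference of the 83 genes was 0.03 with all arrays and 0.16 without the 3, beside -0.01 and -0.04 over all genes tested. In bulk RNA, fewer cells of a type and less RNA per cell cannot be told apart. Without the 3 arrays, the symbol groups of complexes I, IV and V each held 4 or more genes called in each direction. Among the genes called higher were Ndufa4, Cox7a2l, Atp5sl and Atp5c1-ps. These are not known as subunits of the complex that their symbols name (below). Of the 16 genes called with all arrays, 7 had other probes, and in 3 of the 7 all other probes differed in the same direction.

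In complex I, Ndufa4 and Ndufs5 were higher in septa. Ndufa4, named as a complex I gene but known as a subunit of complex IV, lay between 10.07 and 13.90 in 32 septa arrays (median 13.28) and between 10.57 and 12.58 in 33 vessel arrays (median 11.48). On 30 of the 32 septa arrays it exceeded every vessel array. The difference was 1.08 ± 0.32 (SE) with all arrays (limma adjusted p = 0.00938) and 1.55 ± 0.16 without the 3 (limma adjusted p = 2.33e-11), and without them it was positive in each of the 7 conditions, from 1.10 to 1.79. Ndufs5, an accessory subunit, had a median of 10.57 in septa and 9.26 in vessel. The ranges overlapped widely, with 7 of 32 septa arrays above every vessel array. The difference was 1.22 ± 0.25 (limma adjusted p = 0.000172) with all arrays.

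Ndufa11, Ndufa3 and Ndufa12, accessory subunits of the same complex, went the other way. Ndufa11, of the membrane arm, lay between 3.89 and 11.38 in septa (median 9.60) and between 8.64 and 12.15 in vessel (median 10.92). It was lower in septa, by a difference of -1.85 ± 0.29 (limma adjusted p = 1.79e-06), and of -1.62 without the 3 arrays. Ndufa3 had a median of 11.37 in septa and 12.56 in vessel, a difference of -1.65 ± 0.29 (limma adjusted p = 1.49e-05). On 12 of 32 septa arrays it read below every vessel array. Ndufa3 has 2 other probes: without the 3 arrays they differed by -0.33 and 0.26, against -1.24 for the brightest, as plain means over arrays, so the size rests on the probe. Ndufa12 differed by -1.05 ± 0.31 (limma adjusted p = 0.0101).

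Some core subunits of complex I were lower in septa by less than Ndufa11, Ndufa3 and Ndufa12. Others were not lower: Ndufv2, Ndufs3 and Ndufs7 differed by 0.65, 0.46 and 0.01 without the 3 arrays, as plain means over arrays. Ndufs1, which holds iron-sulfur clusters of the electron input end, differed by -0.76 ± 0.26 (limma adjusted p = 0.0273). The mean of its probes gave -0.36, which did not pass (limma adjusted p = 0.18). Ndufs8, another iron-sulfur subunit, differed by -0.72 ± 0.27 (limma adjusted p = 0.0455); leaving out any of 36 single arrays ended that call. Ndufv1, which binds the flavin, differed by -0.76 ± 0.29 and did not pass (limma adjusted p = 0.0541). When the 3 arrays were left out, 15 of the 36 complex I genes were higher and 5 lower in septa; the 15 included 8 Ndufb subunits of the membrane arm, such as Ndufb7 (0.84) and Ndufb3 (0.67).

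**Figure D2:**
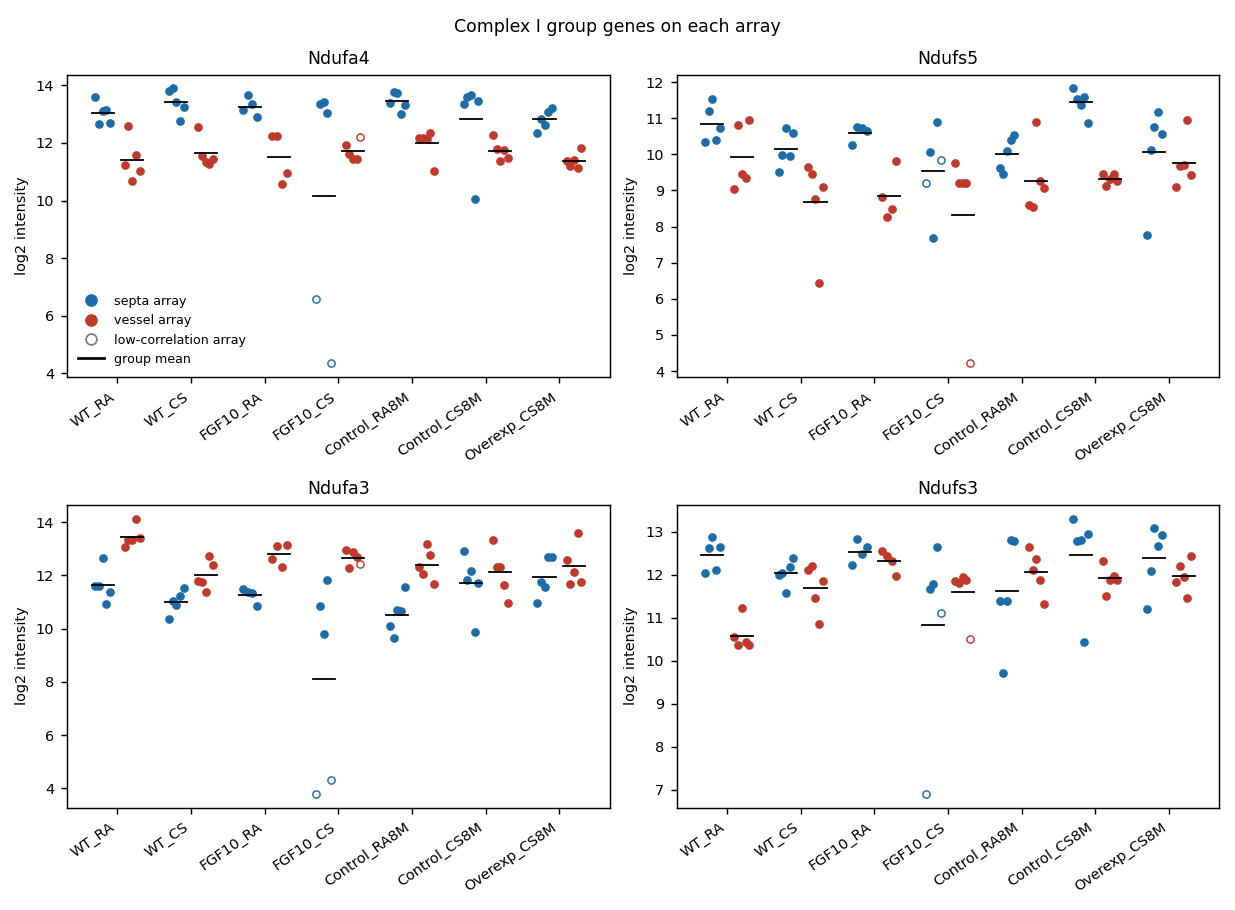
Log2 intensity of 4 genes with complex I symbols on each array, by condition (septa blue, vessel red, bar for the group mean, open points for the low-correlation arrays). Ndufa4 is higher in septa on all but a few arrays, Ndufa3 is lower, and Ndufs3 is low on the 5 wild-type room air vessel arrays.

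Complexes II and III gave no call with all arrays. An unadjusted p under 0.05 was found for 2 of 4 and 1 of 8 genes, and for 7457 of all 23927 genes. Once the 3 arrays were left out, Sdha, the flavoprotein of succinate dehydrogenase, was higher in septa by 0.82 ± 0.15 (limma adjusted p = 1.95e-05), Sdhb, its iron-sulfur subunit, by 0.67 and the membrane anchor Sdhd by 0.77. The other anchor, Sdhc, differed by -0.09 ± 0.13 (limma adjusted p = 0.65). As plain means over arrays, the other probes of Sdha differed by 0.54, -0.20 and, for the dimmest, -0.01, against 0.82 for the brightest. The Sdha difference thus rests on the probe, while the other Sdhb probe differed by 0.58. In complex III, Uqcrb (0.52) and the hinge protein Uqcrh (0.50) were higher without the 3 arrays. The other probes of Uqcrb differed by -0.11 and, for the dimmest, 0.58, as plain means over arrays, so that call rests on the probe. The core proteins Uqcrc1 and Uqcrc2 and the Rieske protein Uqcrfs1 differed by -0.26 to -0.10 and did not pass.

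In complex IV the genes called with all arrays were all lower in septa: Cox6b2, Cox7a1 and Cox6b1. Cox6b2, known as the testis form of Cox6b1, had a median of 10.45 in septa and 11.48 in vessel, a difference of -1.42 ± 0.31 (limma adjusted p = 0.000369). Cox6b1 itself differed by -0.78 ± 0.22 (limma adjusted p = 0.00837). Cox7a2l, a protein known for joining complexes III and IV, stood on the other side. It lay between 11.85 and 15.50 in septa (median 14.95) and between 12.36 and 14.25 in vessel (median 13.52), and on 31 of 32 septa arrays it exceeded every vessel array; the exception was replicate 4 of the 8-month smoke controls, at 11.85. The difference of Cox7a2l was 0.87 ± 0.34 with all arrays, which did not pass (limma adjusted p = 0.0598), and 1.32 ± 0.14 without the 3 (limma adjusted p = 7.49e-11).

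The lung form Cox4i2 read higher in septa than in vessel, with medians of 12.49 and 11.94 without the 3 arrays. Its difference was 0.42 ± 0.28 with all arrays (limma adjusted p = 0.31) and 0.65 ± 0.13 without them (limma adjusted p = 3.89e-05); replicate 5 of knock-down smoke septa, at 3.76, decided this, since leaving out that array alone gave 0.67 (limma adjusted p = 5.09e-05). Without the 3 arrays the sign was the same in each of the 7 conditions, from 0.46 to 0.87. Its widely used counterpart Cox4i1 differed by -0.19 ± 0.12 without the 3 arrays and did not pass (limma adjusted p = 0.254).

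In complex V the small subunits of the central stalk were lower in septa. Atp5d, the delta subunit, had a median of 11.24 in septa and 11.97 in vessel, and 19 of 32 septa arrays read below every vessel array. It differed by -1.07 ± 0.22 (limma adjusted p = 0.000142), and Atp5e, the epsilon subunit, by -0.53 ± 0.15 (limma adjusted p = 0.00774). Of the 3 genes for the c subunit of the proton rotor, Atp5g3 was lower (-0.74 ± 0.23, limma adjusted p = 0.0135), while Atp5g1 (0.16) and Atp5g2 (-0.10) did not pass. The Atp5g1 value rests on the probe. Without the 3 low-correlation arrays its other probes differed by -0.27 and -1.63, against 0.38 for the brightest, as plain means over arrays. Atp5j2, the f subunit, differed by -0.73 ± 0.24 (limma adjusted p = 0.0224), but the mean of its probes gave -0.11 (limma adjusted p = 0.74).

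Other genes with complex V symbols were higher in septa. Atp5sl, now named Dmac2 and known as a factor for complex I assembly, differed by 0.91 ± 0.28 (limma adjusted p = 0.0135). Atp5c1-ps, whose symbol marks it as a pseudogene of the gamma subunit, differed by 1.01 ± 0.28 (limma adjusted p = 0.0069); its signal may be shared with Atp5c1, which differed by -0.25. Leaving out the 3 arrays, Atp5l (the g subunit, 0.97 ± 0.10) and Atp5a1 (the catalytic alpha subunit, 0.96 ± 0.12) were called too, but the dimmer Atp5a1 probe differed by 0.08, against 0.97 for the brighter one, as plain means over arrays. The catalytic beta subunit, Atp5b, differed by 0.16 and did not pass (limma adjusted p = 0.358).

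**Figure D3:**
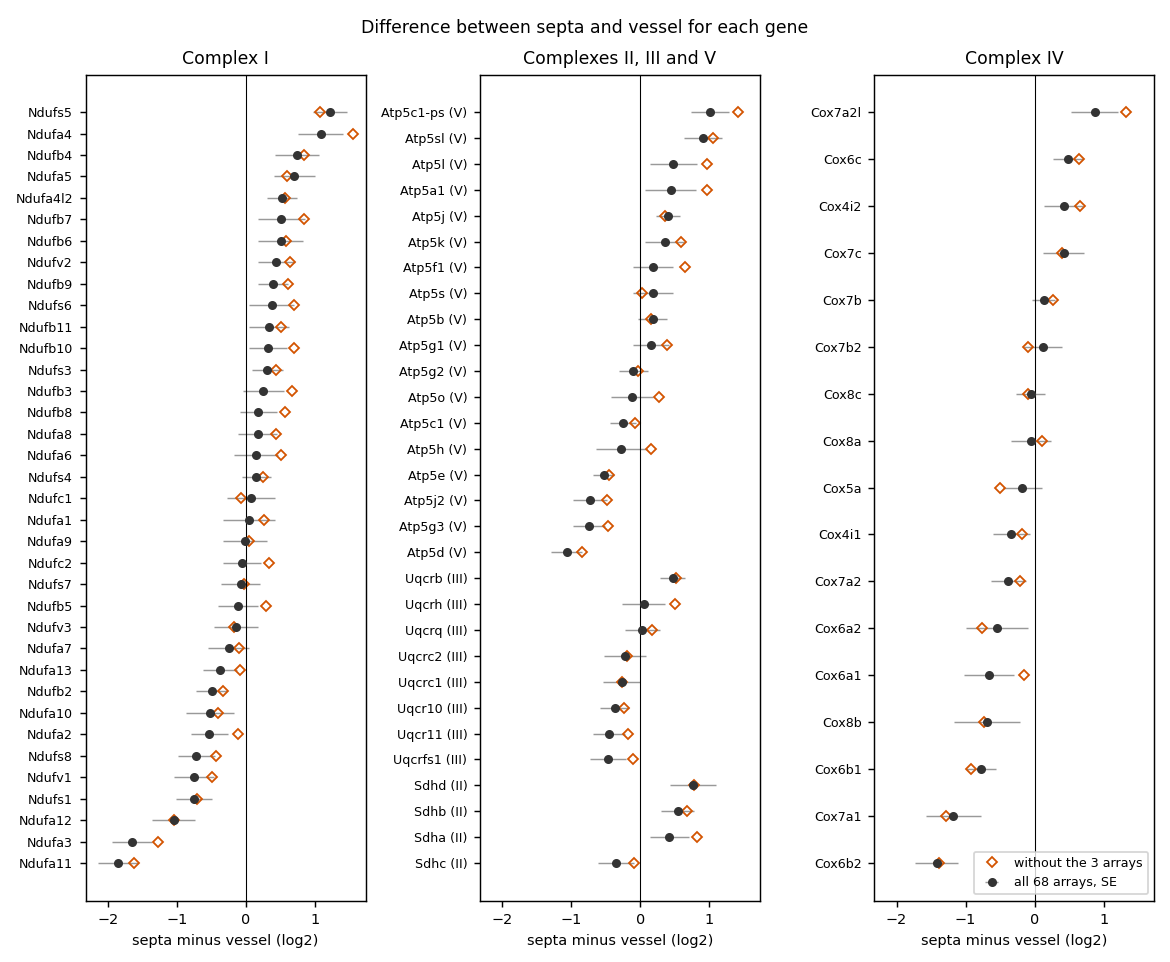
Septa minus vessel (log2) for each of the 83 genes, by complex, with all 68 arrays (filled, bars are SE) and without the 3 low-correlation arrays (open diamonds). Ndufa11, Ndufa3 and Cox6b2 lie furthest to the left, and Ndufa4, Atp5c1-ps and Cox7a2l furthest to the right without the 3 arrays.

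Directions were also counted condition by condition, without the 3 arrays and with no test. Of the 83 genes, 23 (27.7%) were higher in septa in all 7 conditions and 9 (10.8%) lower in all, beside 10.7% and 7.75% of all 24357 genes, dim ones included. The 9 were Ndufa3, Ndufa11, Ndufa12, Ndufv1, Cox6b1, Cox6b2, Atp5d, Atp5e and Atp5g3. Within single conditions few genes were called with all arrays. In wild-type room air Ndufs3, a core subunit of the electron output end, was 1.88 ± 0.57 higher in septa (limma adjusted p = 0.0391), 1 of 83 where 3.13% of all genes were higher. In wild-type smoke Atp5c1-ps was 2.64 ± 0.74 higher (limma adjusted p = 0.0379), 1 of 83 where 0.995% were. Leaving out any of 7 single arrays of the group ended the Ndufs3 call, and any of 8 the Atp5c1-ps call. Without the 3 arrays the error of Ndufs3 was 0.41, and these counts were 13 higher and 2 lower in wild-type room air (background 9.38% and 6.61%) and 13 and 1 in wild-type smoke (background 5.54% and 7.97%).

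In knock-down smoke the count turned on the low-correlation arrays. With all arrays, 22 of 83 genes were lower in septa and 0 higher, where 5.59% of all genes were lower and 3.21% higher, and the members' median was -1.31. Without the 3, it was 1 higher and 3 lower (background 0.671% and 1.54%), with a median of 0.15. In the knock-down room air groups limma called 0 genes with all arrays (background 0.205% either way; 4 genes at an unadjusted p under 0.05), in the 8-month room air controls 0 (0.644%; 7 genes), in the 8-month smoke controls 0 (0.439%; 7 genes) and in the overexpression groups 0 (0.347%; 2 genes). Those counts were, without the 3 arrays, 2, 8, 6 and 5 genes, where 1.18%, 3.07%, 3.15% and 2.05% of all genes were called. With all arrays, 1169, 1897, 2133 and 1643 of all 23927 genes had an unadjusted p under 0.05.

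The heart forms of complex IV set vessel arrays apart from each other. Within groups, Cox6a2, Cox8b and Cox7a1 had the 3 largest standard deviations of the 83 genes in vessel (2.54, 2.27 and 2.17). The median there was 0.64 over the 83 genes and 0.96 over all genes. In septa Cox8b had the largest too (1.49), with 0.94 for Cox6a2 and 0.68 for Cox7a1, beside medians of 0.63 and 0.78. These values leave out the 3 low-correlation arrays. In vessel, Cox6a2 read 11.09, 6.81, 5.88, 13.64 and 9.42 in wild-type room air, 13.87, 10.19, 9.68, 8.75 and 11.53 in wild-type smoke, and 15.37, 15.03, 8.73 and 12.17 in knock-down room air. In the 8-month room air controls it read 14.80, 13.69, 12.05, 8.40 and 9.80, in the smoke controls 12.88, 10.92, 11.42, 8.68 and 9.88, in the overexpression arrays 11.57, 7.35, 7.83, 12.84 and 9.78, and in knock-down smoke 6.49, 12.96, 10.89, 11.12 and 6.90. High and low arrays lay side by side in every vessel group, and the groups overlapped. In septa Cox6a2 stayed between 6.39 and 11.84, and 11 of 33 vessel arrays exceeded every septa array.

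Cox7a1 and Cox8b were spread widely in vessel too. Cox7a1 lay between 6.45 and 14.22 in vessel and between 6.21 and 10.04 in septa, and 11 of 33 vessel arrays exceeded every septa array. Its mean was lower in septa (-1.18 ± 0.40, limma adjusted p = 0.0289); leaving out replicate 1 of knock-down room air vessel, which read 13.06, gave -1.06 and ended the call (limma adjusted p = 0.0539). Cox8b, above the 40th percentile on 43 of 68 arrays, lay between 4.01 and 12.27 in vessel and between 4.09 and 9.36 in septa. The compartment differences of Cox6a2 and Cox8b did not pass (-0.54 ± 0.45 and -0.69 ± 0.48, limma adjusted p = 0.45 and 0.339).

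Cardiomyocyte genes moved with these forms. Mouse pulmonary veins are known to carry a sleeve of cardiac muscle, and the mean of 12 cardiomyocyte genes, such as Myl7 (the atrial myosin light chain) and Tnnt2 (cardiac troponin T), lay between 6.61 and 12.34 on 33 vessel arrays and between 5.90 and 7.11 on 32 septa arrays. Of these 12 genes, 9 were lower in septa and 0 higher with all arrays, and 10 and 0 without the 3. Of 10 skeletal muscle genes, 4 were lower and 1 higher with all arrays, and 4 and 0 without the 3. In these fits 8.89% and 15.0% of all genes were lower. Without the 3 arrays the skeletal muscle mean lay between 5.40 and 6.85 in septa and between 6.14 and 7.83 in vessel. On 8 of 33 vessel arrays it lay above every septa array, and on 27 of 32 septa arrays below every vessel array. Its relation to the heart forms was not tested. Tnnt2 ran from 4.05 to 13.74 over the vessel arrays (median 7.51) and from 3.56 to 9.47 in septa (median 4.26), and 13 of 33 vessel arrays exceeded every septa array. Over the 33 vessel arrays Cox6a2 followed the cardiomyocyte mean with a Pearson r of 0.87 and a Spearman rho of 0.86, Cox8b with 0.80 and 0.65 and Cox7a1 with 0.76 and 0.70. These were ranks 1 to 3 of the 83 genes. Each Pearson r had a permutation p of 1e-05, the smallest that 100000 permutations can give (adjusted over the 10 isoforms followed, 3.33e-05); the Spearman permutation p values were 1e-05, 8e-05 and 2e-05 (adjusted, 0.0001, 0.000267 and 0.0001).

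Within condition groups r was 0.89 for Cox6a2, 0.77 for Cox8b and 0.78 for Cox7a1 (adjusted permutation p = 0.0001 each). Without the 2 arrays farthest from the median r was 0.84, 0.75 and 0.71. The largest gap in the cardiomyocyte mean, 1.06, set 6 arrays, at 11.47 and more, apart from the rest. On the 27 arrays below it, r was 0.73 for Cox6a2, 0.49 for Cox8b and 0.40 for Cox7a1, so the last 2 relations rest in part on those 6 arrays. The counterparts did not pass: r was -0.05 for Cox6a1, -0.14 for Cox8a and -0.02 for Cox7a2 (adjusted permutation p = 0.864, 0.739 and 0.934). Cox4i1 and Ndufa4 had 0.35 each (adjusted permutation p = 0.0944), Ndufa4l2 had 0.07 and Cox4i2 had -0.07. After the heart forms, Uqcrq (0.64), Atp5a1 (0.57) and Ndufv2 (0.55) had the highest r, and the median of the 83 genes was 0.23. On the 27 arrays below the gap, r of the counterparts was 0.13 for Cox6a1, 0.30 for Cox8a and 0.25 for Cox7a2. On the 6 arrays above it, r was 0.84 for Cox6a2, 0.23 for Cox8b and 0.12 for Cox7a1. There the counterparts had -0.01 (Cox6a1), 0.57 (Cox8a) and 0.31 (Cox7a2). Cox8b and Cox7a1 thus stood apart from their counterparts less within these parts than over both together. These are correlations across arrays of cut tissue, and the part of the muscle content of each cut was not tested. Ucp1, the marker of brown fat, lay between 3.64 and 5.48 in septa and between 3.78 and 7.50 in vessel. Of 10 brown adipocyte genes, Ucp1 among them, 2 were lower in septa and 0 higher, where 8.89% of all genes were lower. Without the 3 arrays their mean lay between 5.48 and 6.51 in septa and between 5.28 and 7.33 in vessel. On 8 of 33 vessel arrays it exceeded every septa array, and its relation to the heart forms was not tested.

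**Figure D4:**
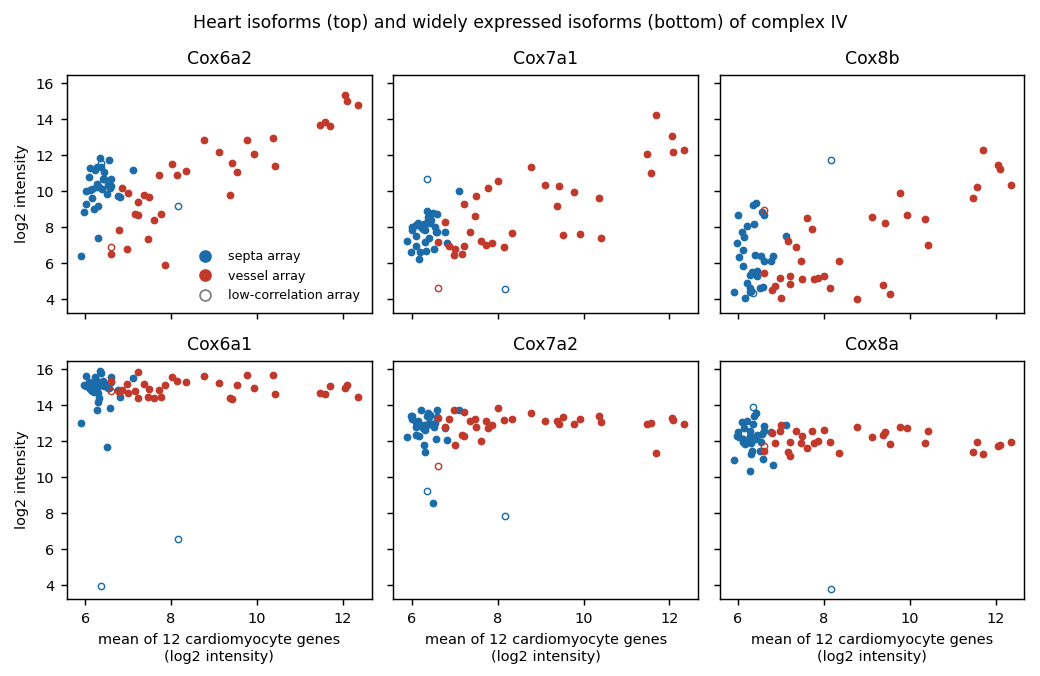
Log2 intensity of 3 heart forms (top) and of their widely expressed counterparts (bottom) against the mean of 12 cardiomyocyte genes, 1 point an array (septa blue, vessel red, low-correlation arrays open). The heart forms climb over the vessel arrays (r of 0.87, 0.76 and 0.80); r of the counterparts was -0.05 (Cox6a1), -0.02 (Cox7a2) and -0.14 (Cox8a).

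Smoke was compared within each compartment. Shares of all genes called refer to the adjusted p, and not to the counts at an unadjusted p given with them. After 3 months in wild-type septa limma called 0 of 83 genes (1 at an unadjusted p under 0.05; 0.00464% of all genes called), with a median of -0.10 beside 0.01 over all genes. Ndufa4l2, a relative of Ndufa4 known as a target of hypoxia signalling, had the smallest p: it read 7.85, 8.15, 9.30, 7.17 and 7.19 in room air and 6.55, 5.82, 7.29, 6.95 and 6.50 in smoke. The smoke array at 7.29 lay above 2 of the room air arrays, so the groups overlapped. The difference was -1.31 ± 0.53 (limma adjusted p = 1). Next came Cox8b (-1.63) and Atp5sl (1.02), which did not pass. In wild-type vessel 0 of 83 passed (0.143% of all genes called), with a median of -0.25 beside 0.10 over all genes. An unadjusted p under 0.05 was found for 2729 of all 22319 genes and for 10 of the members. Ndufa3 had the smallest p there, at -1.44 ± 0.41 (limma adjusted p = 0.141), followed by Ndufs3 (1.11) and Atp5g1 (1.24). None of the 83 passed the test of a different 3-month smoke effect in septa and vessel (0 at an unadjusted p under 0.05; limma called 0% of all genes).

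After 8 months the septa of smoke controls stood above room air controls in 67 of 83 genes, where 52.9% of all genes did, with a median of 0.39 beside 0.05 over all genes. That median was 0.67 without replicate 4 of the smoke controls and 0.29 without replicate 1 of the room air controls. Of the 83 genes limma called 0 (0.0232% of all genes called). At an unadjusted p under 0.05 there were 1556 of all 21549 genes and 3 of the members. Without the 3 arrays, which are in neither group but enter the shared spread, 0 of 81 were called again (0.733% of all genes called). There 3693 of all 20190 genes and 22 of the 81 members had an unadjusted p under 0.05. Cox5a, a matrix-facing subunit of complex IV, had the smallest p. It read 9.85, 9.54, 10.28, 10.03 and 10.56 in room air controls and 11.84, 11.09, 11.65, 12.65 and 11.21 in smoke controls, without overlap. The difference was 1.64 ± 0.59 (limma adjusted p = 0.541), and without the 3 arrays its error was 0.42 (limma adjusted p = 0.0548). Ndufs5 did not overlap either, at 9.45 to 10.54 in room air and 10.87 to 11.83 in smoke, a difference of 1.43 ± 0.55 (limma adjusted p = 0.593). Ndufa4l2 differed by 1.35 ± 0.53 (limma adjusted p = 0.6), opposite in sign to its 3-month value.

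Complexes I, II and III had a positive difference in 31 of 36, 4 of 4 and 8 of 8 genes in this comparison, complex IV in 10 of 17 and complex V in 14 of 18. Alveolar macrophage genes moved in the same comparison: the median of 9 markers was 2.70. Their mean ran from 9.02 to 10.34 in room air controls and from 10.21 to 12.27 in smoke controls. Of the 9, 0 were called with all arrays and 4 without the 3 (0.733% of all genes called). Other cell markers shifted too, with medians of 0.94 for 10 neutrophil, 0.73 for 10 alveolar type 2 and -0.77 for 10 capillary genes, 0 called in each list. Their part in the members' values was not tested. In septa of the 8-month room air controls the members were lower than in the 3-month wild-type room air arrays in 61 of 83 genes (median -0.42, beside -0.02 over all genes), with 0 called by limma and 1 at an unadjusted p under 0.05 (0.00464% of all genes called). That comparison shares the 8-month room air arrays with the smoke comparison. In it the length of exposure, the animals' label (control or wild type) and the treatment after exposure differ together and cannot be told apart.

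In vessel, 8 months of smoke left the members' median at 0.00, with 0 called by limma (0% of all genes called). At an unadjusted p under 0.05 there were 782 of all 22319 genes and 3 of the members. Ndufa11 had the smallest p, at -1.51 ± 0.57 (limma adjusted p = 1). Cox8b differed by -2.83 ± 1.36 (limma adjusted p = 1), and the median of the 12 cardiomyocyte genes by -1.67. The difference between the smoke effects of septa and vessel was largest for Cox8b, at 4.32 ± 1.75, and did not pass (limma adjusted p = 1). In that test 0 of the 83 members and 0% of all genes were called. An unadjusted p under 0.05 was found for 4 of 83 members and for 812 of all 23927 genes.

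The labelled Fgf10 dose was compared next, for which the Fgf10 probe itself gave no clear difference (above). In room air septa 0 of 83 genes were called between knock-down and wild type (1 at an unadjusted p under 0.05; limma called 0% of all genes), with a median of -0.05. Atp5sl had the smallest p, at 1.59 ± 0.72 (limma adjusted p = 1). In room air vessel 1 gene was called, where 0.237% of all genes were higher. Ndufs3 read 10.55, 10.37, 11.23, 10.43 and 10.37 in wild type and 12.56, 12.43, 12.33 and 11.97 in knock-down, without overlap. The difference was 1.73 ± 0.36 (limma adjusted p = 0.0362). Leaving out replicate 2 of the wild type, or any of the 4 knock-down arrays, ended the call (limma adjusted p = 0.0648 to 0.118).

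The wild-type room air vessel arrays were the low ones for Ndufs3. Every other vessel group had a higher mean, from 11.61 in knock-down smoke to 12.32 in knock-down room air, against 10.59 ± 0.36 (SD, n = 5). Against the 8-month room air controls, which read 12.65, 12.11, 12.38, 11.88 and 11.32, the difference was 1.48 ± 0.34 (limma adjusted p = 0.0363), again the only member called, where 0.591% of all genes were higher. Leaving out any of 6 single arrays ended it (limma adjusted p = 0.0559 to 0.0916). Against wild-type smoke it was 1.11 ± 0.34 and did not pass (limma adjusted p = 0.183). These comparisons share the 5 wild-type room air arrays, as does the call of septa against vessel in that group. In the one with the 8-month controls, the length of exposure, the animals' label and the treatment after exposure differ together, as in septa. The mean of the 2 Ndufs3 probes gave 1.22 for the knock-down (limma adjusted p = 0.198) and 0.68 for the 8-month controls (limma adjusted p = 0.433), neither of which passed. In septa Ndufs3 had a mean of 12.47 ± 0.37 (SD, n = 5) in wild-type room air.

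Under smoke, knock-down septa read lower than wild type in 75 of 83 genes, with a median of -1.60 beside -0.16 over all genes. An unadjusted p under 0.05 was found for 6183 of all 21549 genes and for 43 of the members. Only Atp5g3 passed, 1 of 83 where 2.61% of all genes were lower. Atp5g3 read 12.59, 12.35, 11.87, 11.46 and 11.72 in wild type and 5.11, 11.69, 11.56, 11.13 and 6.80 in knock-down, and the 2 low values are the low-correlation arrays. Its difference was -2.74 ± 0.76 (limma adjusted p = 0.0493). Without the 3 arrays it was -0.54 ± 0.32 (limma adjusted p = 0.998), the median of the members was -0.11, and 0 of 81 genes had an unadjusted p under 0.05. Leaving out only replicate 1, only replicate 5 or any wild-type array also gave 0 calls, while leaving out replicate 2, 3 or 4 of knock-down gave 38, 32 and 40 called genes. The share of all genes called in these fits was not counted, so the counts do not set the members apart from other genes. Smoke within knock-down septa had the same low-correlation arrays in it: the median went from -1.75 to -0.11 without them. With and without them limma called 0 members, where 0% and 0.00991% of all genes were called. At an unadjusted p under 0.05 there were 45 and 2 members, and 6091 of 21549 and 1163 of 20190 genes tested.

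In vessel under smoke, knock-down differed from wild type by a median of 0.04, with 0 called by limma (5.38% of all genes called). An unadjusted p under 0.05 was found for 4616 of all 22319 genes and for 11 of the members. Ndufb2, a membrane arm subunit of complex I, had the smallest p, at 1.71 ± 0.53 (limma adjusted p = 0.0533), followed by Atp5c1-ps (1.99) and Atp5g3. Without the 3 arrays the median was 0.35 beside 0.03 over all genes. Without replicate 1 of wild-type smoke vessel 3 genes were called. Smoke within knock-down vessel gave a median of -0.26 and 0 calls by limma (0.184% of all genes called). At an unadjusted p under 0.05 there were 2155 of all 22319 genes and 5 of the members. Among the members Cox7a1 had the smallest p, at -3.32 ± 1.39 (limma adjusted p = 0.44).

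Arrays labelled as overexpressing Fgf10 were set against both 8-month controls. In septa limma called 0 of 83 genes against smoke controls (1 at an unadjusted p under 0.05; 0% of all genes called) and 0 against room air controls (0 at an unadjusted p under 0.05; 0.00464%). Ndufs5 had the smallest p against smoke controls, at -1.36 ± 0.55 (limma adjusted p = 1), and it read 7.76, 10.12, 10.76, 11.17 and 10.57 on the overexpression arrays. The members' median was -0.16 against smoke controls and 0.25 against room air controls, in comparisons that share the overexpression arrays; the first was -0.37 without replicate 4 of the smoke controls and 0.04 without replicate 1 of overexpression. Against room air controls the smallest p was that of Uqcr10, a small complex III subunit, at 1.26 ± 0.65 (limma adjusted p = 1). In vessel 0 were called against smoke controls (0 at an unadjusted p under 0.05; 0%) and 0 against room air controls (1; 0.0403%), with medians of -0.03 and -0.10.

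**Figure D5:**
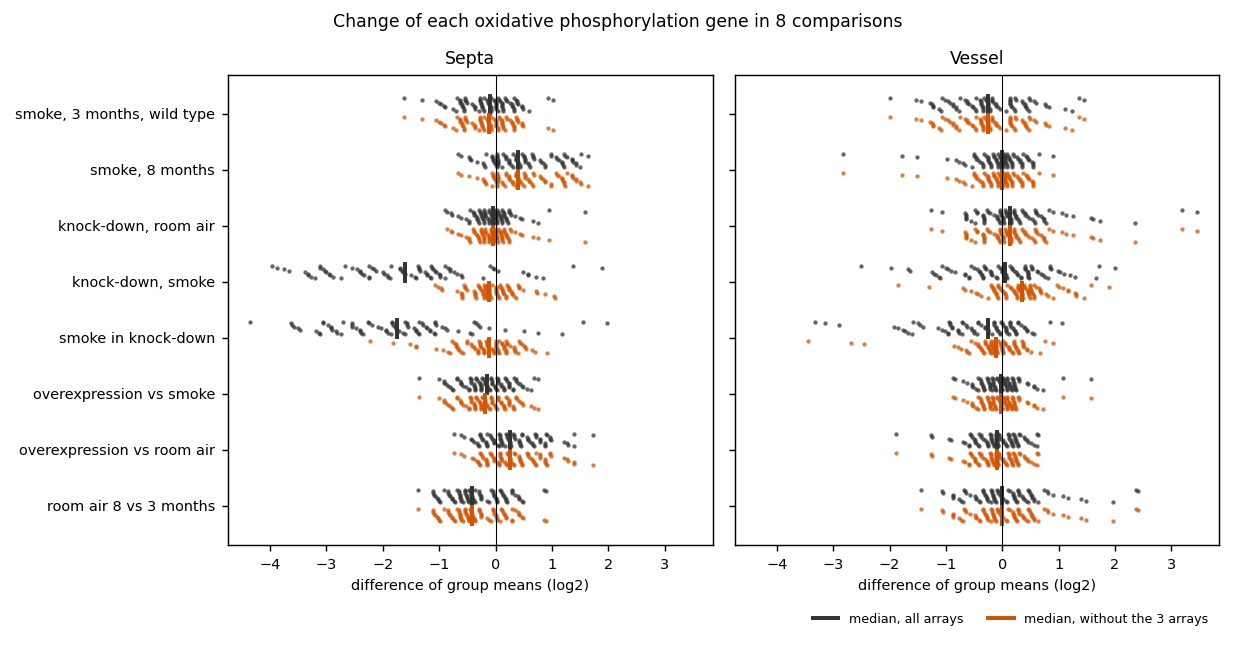
Difference of group means (log2) of each gene in 8 comparisons of conditions in septa (left) and vessel (right), with all arrays (dark) and without the 3 low-correlation arrays (orange); points are genes and bars medians. The medians of the knock-down smoke comparisons in septa move from -1.60 and -1.75 to -0.11.

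Related genes were followed between septa and vessel. Of 11 subunits encoded by mitochondrial DNA on the array, 0 were called by limma with all arrays (1 at an unadjusted p under 0.05); without the 3 arrays ND6 (0.73, limma adjusted p = 0.00154) and ND5 (0.46, limma adjusted p = 0.0452), both of complex I, were higher in septa and COX2, of complex IV, was lower (-0.36, limma adjusted p = 0.00851). Among 43 assembly factors 6 were higher and 3 lower, and 9 and 3 without the 3 arrays, in fits where 11.0% and 8.89%, then 18.5% and 15.0%, of all genes were called higher and lower. Ndufaf2, a complex I assembly factor related to Ndufa12, was higher by 1.42 ± 0.35 (limma adjusted p = 0.00209). The copper carrier Cox17, which supplies complex IV, differed by -1.10 ± 0.19 (limma adjusted p = 9.84e-06). Among 18 regulators of mitochondrial biogenesis 2 were higher and 0 lower, a share near the 11.0% of all genes that were higher (3 and 2 without the 3 arrays): Tfam, which packages and transcribes mitochondrial DNA, by 1.23 ± 0.27 (limma adjusted p = 0.000408) and Nrf1, the gene of NRF1, by 1.12 ± 0.29 (limma adjusted p = 0.00309).

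Other energy pathways were read against the same shares of all genes, 11.0% higher and 8.89% lower with all arrays, 18.5% and 15.0% without the 3. Of 17 genes of the tricarboxylic acid cycle 1 was higher in septa, Dld, the shared E3 subunit of 2-oxoacid dehydrogenases, by 1.09 ± 0.24 (limma adjusted p = 6e-04); without the 3 arrays 5 were higher and 1 lower. Of 16 glycolysis genes 1 was higher, Hk2 (hexokinase, 1.54 ± 0.36, limma adjusted p = 0.000988), and 3 lower, among them Pfkl (phosphofructokinase, -1.28 ± 0.32, limma adjusted p = 0.00237), and without the 3 arrays 2 were higher and 4 lower. Of 16 targets of hypoxia-inducible factor 4 were higher and 0 lower, P4ha1 (a collagen prolyl hydroxylase) by 1.76 ± 0.30 (limma adjusted p = 1e-05) and Vegfa, the vascular growth factor, by 1.17 ± 0.33 (limma adjusted p = 0.0081); without the 3 arrays 6 were higher and 1 lower. Of 16 fatty acid oxidation genes only Acadm, the medium-chain dehydrogenase, was called, at a difference of -0.85 ± 0.28 (limma adjusted p = 0.0222). Acadm was no longer called without the 3 arrays (-0.55, limma adjusted p = 0.0562), and 4 others were higher and 0 lower, among them Decr1, an enzyme for unsaturated fatty acids, at 1.31 (limma adjusted p = 1.7e-06). Markers of other cells split the same comparison: 8 of 10 neutrophil, 7 of 10 alveolar type 1, 7 of 10 capillary and 5 of 9 alveolar macrophage genes were higher in septa (medians of 1.47, 1.06, 1.47 and 1.21) and 1 macrophage gene lower, and 9 of 10 smooth muscle genes and 7 of 10 genes of adventitial fibroblasts were lower. Of 10 airway club and ciliated genes 5 were lower and 0 higher, and 7 lower and 1 higher without the 3 arrays. Of 10 alveolar type 2 genes 3 were higher and 0 lower, and 5 higher and 1 lower without them. The part of all these cells in the members' differences was not tested.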

How the data were processed

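RNA from laser-microdissected septa and vessels, amplified with a whole-transcriptome kit per the labels' protocols, was hybridised to 68 1-colour arrays. The deposited values are log2 intensities of 62976 features, between 3.27 and 15.98, with 44 missing. Their percentiles differ by at most 0.00264 between arrays, as quantile normalisation by the authors would give; the submitters' processing notes name limma, and no label names a background correction. As 1-colour arrays have no read depth, the number of arrays limits precision.

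Platform annotation gave 43941 features 1 gene symbol and left 19035 unnamed. Each gene was represented by its brightest feature. All 83 members matched RefSeq, and 3 carry newer symbols there (Atp5f1 as Atp5pb, Atp5s as Dmac2l, Atp5sl as Dmac2). Genes above the 40th percentile of the array on at least 4 arrays were tested with limma 3.58.1 in R 4.3.3 (group means, moderated, two-sided, Benjamini-Hochberg over all genes tested, threshold 0.05). Septa and vessel were compared over all arrays and conditions within a compartment. Groups came from the titles; wild-type smoke septa replicate 4 is entered as knock-down in another label, and counting it so was an alternative. The other alternatives were averaging a gene's probes, no filter, centring on the array median, array weights, the compared groups alone, a replicate block, leaving out each array, and leaving out the 3 low-correlation arrays. The fits were tested on simulated data. In the smoke comparisons tested so, most of the smaller changes put in were not called, so 0 calls there do not show that nothing changed.

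The members and gene lists were chosen with earlier results of these data known. All members could be named. Tissue forms of complex IV and their counterparts are given in detail, then genes past the threshold or the smallest p of a comparison, and up to 4 genes of each related list.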

Additional observations from a re-analysis of the deposited data

Results flagged for a closer look

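In each group of 4 or 5 arrays, the highest and the lowest value of 27 genes, of complexes and of all members were compared with the nearest other value by Dixon's test. It set 42 of 462 groups apart, where chance sets about 1 in 20 apart.

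Many of them lie on the low-correlation arrays. On replicate 5 of knock-down smoke vessel the lowest values were Cox4i1 at 11.66, Cox7a2 at 10.61, Atp5d at 11.06, Cox6b2 at 5.28, Ndufa12 at 5.27, Ndufs1 at 6.45, Ndufs5 at 4.21, Ndufs3 at 10.52, Cox5a at 4.89 and the complex III median at 11.84. Replicate 5 of knock-down smoke septa was lowest for Cox4i1 (5.67), Cox4i2 (3.76) and Ndufs8 (4.72), and replicate 1 for Ndufs3 (6.91).

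Replicate 4 of the 8-month smoke control septa was lowest for Cox4i1 (12.37), Cox6a1 (11.71), Cox7a2 (8.56), Ndufa4 (10.07), Ndufa11 (7.90), Ndufs3 (10.44), Cox7a2l (11.85) and the complex III median (11.66). Among other septa arrays, replicate 1 of overexpression was low for Atp5sl (7.78), replicate 2 of the 8-month room air controls for Cox6b1 (8.78) and the complex II median (9.65), and replicate 2 of knock-down room air was high for the complex V median (12.01).

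In vessel, replicate 1 of wild-type smoke was highest for Cox8b (10.24) and Ndufa4 (12.56), and replicate 4 of wild-type smoke lowest for Ndufs5 (6.45), Cox5a (8.48) and the complex I median (9.96). In wild-type room air vessel, replicate 3 was lowest for Ndufa12 (9.90) and Cox5a (8.59) and highest for Ndufs3 (11.23), replicate 4 was highest for Cox8b (12.27) and replicate 5 for Cox6a1 (15.85). Replicate 1 of the 8-month smoke controls was highest for Cox7a1 (11.35), Atp5e (15.50) and Cox5a (11.94). In the 8-month room air controls replicate 4 was lowest for Cox7a2 (12.02) and replicate 5 for Ndufa4 (11.04), and in the overexpression arrays replicate 4 was lowest for Cox4i2 (10.57).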

How the results depend on the processing

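Medians of the 83 genes moved most where the 3 low-correlation arrays were left out or weighted down. Leaving them out took the medians from -1.60 to -0.11 for knock-down under smoke in septa, from -1.75 to -0.11 for smoke within knock-down septa, and from -1.31 to 0.15 for septa against vessel in knock-down smoke. Of the counts of called genes, 40 of 207 from fits with another setting and 49 of 332 that left out 1 array moved by over 1.5 times. Apart from the fits without the 3 low-correlation arrays, the share of all genes called was not counted. The counts of the other fits thus do not set the members apart from other genes. With array weights the count between septa and vessel was 46 in place of 16, and within conditions it was 5 (wild-type room air), 32 (wild-type smoke), 15 (knock-down room air), 1 (knock-down smoke), 10, 12 and 7 (8-month room air, smoke and overexpression). Weights also gave 0 for knock-down under smoke in septa, 3 for 8-month smoke in septa, 6 for knock-down under smoke in vessel and 0 for 8-month against 3-month room air vessel. Without the 3 low-correlation arrays the counts between compartments were 43 overall and 15, 14, 2, 4, 8, 6 and 5 in the same order of conditions, and knock-down under smoke in septa gave 0. With the compared groups alone the conditions gave 5 (wild-type smoke), 7 (knock-down room air), 0 (knock-down smoke), 4, 1 and 4, and 0 for knock-down under smoke in septa, knock-down in room air vessel and the 8-month room air vessel comparison. The mean of all probes gave 0 for wild-type room air, for knock-down under smoke in septa, for knock-down in room air vessel and for the 8-month room air vessel comparison. Counting the array with conflicting labels as knock-down gave 0 for wild-type smoke, 10 for knock-down smoke and 0 for knock-down under smoke in septa, and testing all genes without a filter gave 0 for the last. The cause of these shifts was not tested.

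With the replicate block, knock-down in room air vessel gave 0 genes (Ndufs3 1.67, limma adjusted p = 0.0521) and knock-down under smoke in vessel gave 2. Whether same-numbered septa and vessel arrays of a condition belong together could not be settled from the values. The correlation of their deviations from group means lay between -0.23 and 0.38 (median 0.038, 34 pairs). For arrays with other numbers it lay between -0.43 and 0.38 (median -0.011, 132 pairs), and such weak correlations cannot exclude a pairing.

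Leaving out 1 array gave 14 (without replicate 1 of knock-down room air vessel) to 25 genes (without replicate 5 of knock-down smoke septa) between septa and vessel, 0 to 1 in wild-type room air, 0 to 1 in wild-type smoke, and 10 to 37 in knock-down smoke (10 and 12 without septa replicates 5 and 1, 37 without replicate 2 or 4, 14 without vessel replicate 2). It gave 0 to 40 for knock-down under smoke in septa and 0 to 41 for smoke within knock-down septa (38, 29 and 41 without replicates 2, 3 and 4). It gave 0 to 1 for knock-down in room air vessel, 0 to 3 for knock-down under smoke in vessel and 0 to 1 for the 8-month room air vessel comparison. Those of 2 genes changed sign without having been called: Cox6a1 between septa and vessel was 0.01 with array weights, and Cox8a was 0.19 with array weights, 0.11 without the 3 arrays and 0.18 without replicate 5 of knock-down smoke septa, while without replicate 1 it was -0.18.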
